A study of Mus musculus with 12 samples.

Results

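The response to the iron chelator desferrioxamine (DFO) in cells depleted of NCOA4 was measured in 6 of the 12 RNA-seq libraries of the series, which were chosen by their labels. Of these, 3 libraries came from HT22 cells given Ncoa4 siRNA alone (siNCOA4), and 3 came from cells given Ncoa4 siRNA and 100 µM DFO for 24 h (siNCOA4+DFO). HT22 is an immortalized mouse line of hippocampal origin, and all 12 libraries were made from it. The other 6 libraries came from cells given a control siRNA without DFO (siControl) or with DFO at the same dose and time (siControl+DFO). The siRNA was delivered with liposomes in every group, so the 2 groups compared share Ncoa4 siRNA and differ in DFO, and every replicate is a culture of the same line.

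NCOA4 is the cargo receptor that delivers ferritin, the protein shell in which cells store iron, by autophagy to the lysosome. Ferritin is broken down there, and its iron is set free. This route is called ferritinophagy. When iron falls, iron regulatory proteins bind hairpins called iron-responsive elements (IREs) in mRNAs. They protect the transferrin receptor mRNA from decay and block the translation of ferritin mRNAs. Iron is also a cofactor of the prolyl hydroxylases that mark hypoxia-inducible factor (HIF) for destruction, and of ribonucleotide reductase, which makes the building blocks of DNA. Iron chelators are therefore known to raise HIF target genes and to stall DNA synthesis, and they can activate the transcription factor p53.

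Levels are given in FPKM, which scales fragments to transcript length and library size, so that they can be compared between genes. Ncoa4, the gene targeted by the siRNA, lay at 6.46, 6.19 and 6.02 FPKM in siControl and at 8.7, 8.31 and 7.52 FPKM in siControl+DFO. It lay at 0.77, 0.952 and 0.891 FPKM in siNCOA4 and at 0.85, 1.29 and 1.57 FPKM in siNCOA4+DFO, so every library with the Ncoa4 siRNA was below every library with the control siRNA. Read totals cannot be had from FPKM. Low values fall in steps of whole reads, and these put the depth of the siNCOA4 libraries at 1, 0.966 and 1.08, relative to replicate 1, and that of the siNCOA4+DFO libraries at 0.849, 0.919 and 0.709. Small RNA genes held 36.4% to 40.9% of all FPKM in siNCOA4 and 48.1% to 52.4% in siNCOA4+DFO. Of 20 neuron markers, 15 were listed at 0 in all siNCOA4 libraries, among them Rbfox3, Map2 and Snap25, and the highest of the rest was Tubb3 at 4.56 to 5.9 FPKM. The summed level of the 20 was 6.34 to 7.99 FPKM without and 5.83 to 10.4 FPKM with DFO. Within it, Tubb3 lay at 5.01 to 9.15 FPKM with DFO, while Camk2a fell from 1.28, 1.39 and 1.42 FPKM to 0.216, 0.133 and 0.172 FPKM. Of 10 fibroblast markers, 9 had a mean of at least 1 FPKM in siNCOA4. The cells are labelled as hippocampal neurons, and most defining markers of neurons were at or near 0: with DFO 8 of the 20 were listed at 0 in all libraries, and Rbfox3 and Snap25 reached at most 0.11 and 0.179 FPKM. Astrocyte markers summed to 22.5 to 27.3 FPKM without and 6.98 to 15.3 FPKM with DFO, led by Slc1a3, with Aqp4 and Gjb6 at 0 without DFO. The sum followed Slc1a3, with means of 24 FPKM without and 7.13 FPKM with DFO. Aldh1l1 and Gfap went the other way, from means of 0.811 and 0.0324 FPKM to 2.5 and 0.489 FPKM. Oligodendrocyte markers summed to at most 1.05 FPKM.

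Some values in the files cannot be taken at face value. Gapdh, a glycolytic enzyme that cells use in large amounts, was listed at 0.443, 0.457 and 0.364 FPKM in siNCOA4 and at 33.2, 0.641 and 2.82 FPKM in siNCOA4+DFO. Transcripts of 118 other annotated genes share 75-base windows with Gapdh. The value of a gene with near-identical copies, Gapdh and several histone genes among them, is therefore uncertain, and a gene at 0 is described below only as listed at 0.

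With DFO, the iron importers Tfrc and Slc39a14, most HIF and p53 targets, the ATF4 branch of the stress response, and cytokine, immediate early and interferon response genes were higher in NCOA4-depleted cells. Histone genes and part of the mitotic machinery were lower. Of 11539 genes with at least 0.5 FPKM in at least 3 of the 6 libraries, 1293 (11.2%) changed by more than 2-fold with an adjusted p below 0.05 (limma on log2(FPKM + 0.1), with the Benjamini-Hochberg method across the whole table). Of these, 845 (7.32% of the genes tested) were higher with DFO and 448 (3.88%) were lower. These genes are referred to as called, and the shares of 7.32% and 3.88% are the background for the counts in gene lists below. A gene can pass the filter through the 3 libraries of a single group, and it can then only be higher in that group. Among called genes, 22 of those higher were listed at 0 in all siNCOA4 libraries, and 3 of those lower in all siNCOA4+DFO libraries. Counts and medians of the lists below may include such genes. At an adjusted p below 0.05 with no condition on the fold, 5048 genes (43.7%) differed, 2700 (23.4%) of them higher and 2348 (20.3%) lower. The median change over all genes tested was -0.009 on the log2 scale, and no further scaling was applied. The deposited FPKM were already on a common scale, with median-of-ratios factors of 1.006 to 1.013 in the 6 libraries. A median near 0 therefore cannot show whether RNA as a whole shifted, and changes are relative to the other genes. All fold and log2 changes are on the log2(FPKM + 0.1) scale, which understates the changes of genes with low FPKM.

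**Figure D1:**
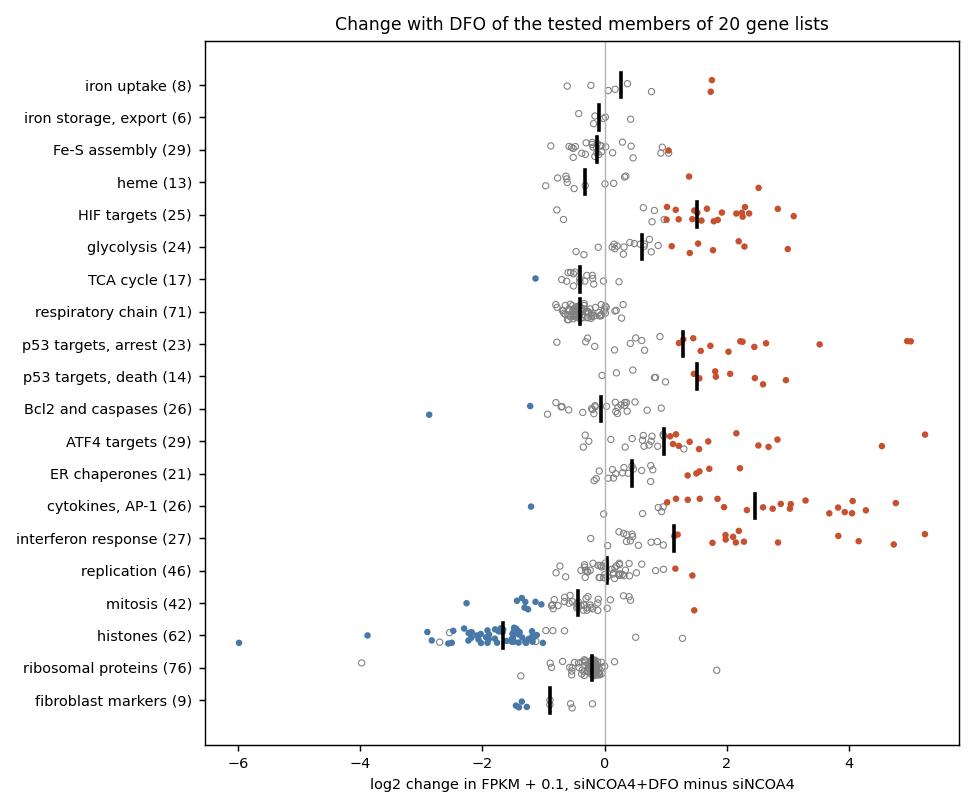
Log2 change in FPKM + 0.1 of siNCOA4+DFO relative to siNCOA4 for the tested members of 20 gene lists, with the number tested in parentheses. Each point is a gene, filled red where it was called higher, filled blue where it was called lower and open where it was not called, and the black bar is the median of the list. The HIF, p53, ATF4, cytokine and interferon lists lie to the right of 0 and the histone genes to the left, with a median of -1.66. The call of Gapdh, the rightmost glycolysis point, is uncertain.

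The first genes of interest are those of iron uptake. Tfrc encodes the transferrin receptor, which brings transferrin-bound iron into the cell. It lay at 69.9, 80 and 66 FPKM in siNCOA4 and at 223.7, 233.3 and 263.7 FPKM in siNCOA4+DFO. The groups did not overlap, and replicate 3, which was the weakest responder over most genes, had the highest Tfrc of the 6 libraries. The change was 3.34-fold (log2 change 1.74 ± 0.087 (SE, n = 3 per group), adjusted p = 4.29e-08 with limma). The IREs of Tfrc are shown here because they are the elements by which the cell reads its iron level into this mRNA. A search for a bulged C, 5 paired bases, the loop CAGTGN and 5 paired bases found 4 such hairpins in the 3′ untranslated region of Tfrc, in its last exon (exon 19 of 19) on the plus strand of chromosome 16. They are printed 5′ to 3′ from GENCODE transcripts on GRCm38, with the bulged C and the loop in capitals.
Tfrc IRE at chr16:32631219-32631248: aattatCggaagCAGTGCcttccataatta
Tfrc IRE at chr16:32631598-32631627: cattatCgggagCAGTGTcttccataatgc
Tfrc IRE at chr16:32631663-32631692: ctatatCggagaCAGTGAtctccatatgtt
Tfrc IRE at chr16:32631710-32631739: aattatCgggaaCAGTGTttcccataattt

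The same letters and pairing were found in the 3′ untranslated regions of 128 of 21014 coding genes (0.609%), and Tfrc was the single gene with 2 or more matches. The search is strict and misses known IREs whose letters or pairing depart from it, that of Slc11a2 among them, with 0 matches, so these counts are of this pattern and not of IREs. Of the 83 such genes that were tested, 3 were called higher and 2 lower, with a median log2 change of -0.089. In the 5′ untranslated region, the hairpin was found in 20 of 20409 genes (0.098%), among them the ferritin chains Fth1 on chromosome 19 (plus strand, exon 2 of 5) and Ftl1 on chromosome 7 (minus strand, exon 1 of 4). These are shown for contrast, since the same element lies there at the other end of the mRNA.
Fth1 IRE at chr19:9982732-9982761: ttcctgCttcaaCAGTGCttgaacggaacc
Ftl1 IRE at chr7:45459778-45459807: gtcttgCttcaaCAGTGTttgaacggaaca

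Ferritin mRNA moved little. Fth1, the ferritin heavy chain, lay at 1186, 1136 and 1192 FPKM in siNCOA4 and at 939.6, 923.2 and 768.9 FPKM in siNCOA4+DFO. All libraries with DFO were below all those without, and the log2 change was -0.42 ± 0.101 (SE, adjusted p = 0.00462). Ftl1, the light chain, lay at 755.6 to 872.2 FPKM without and 612.3 to 775.7 FPKM with DFO, and its groups overlapped (log2 change -0.18, adjusted p = 0.222). A share of 42.3% of the 75-base windows of Ftl1 also occurs in other genes. Of the 6 tested genes of iron storage and export, 0 were called by limma. Fth1 was the 1 gene of these with an unadjusted p below 0.05. Slc40a1, the iron exporter ferroportin, stayed below the filter, with 0, 0.32 and 0.573 FPKM without and 0.273, 0.42 and 0.436 FPKM with DFO. Ncoa4 itself did not pass the test (log2 change 0.43, adjusted p = 0.117).

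Among 8 tested genes of iron uptake, 2 were called higher (Tfrc and Slc39a14) and 0 lower, with a median log2 change of 0.274. Slc39a14, the zinc and iron transporter ZIP14, lay at 4.08, 3.68 and 3.1 FPKM in siNCOA4 and at 14, 14.6 and 9.35 FPKM in siNCOA4+DFO. It was 3.38-fold higher with DFO (adjusted p = 7.2e-06), and replicate 3 was the lowest of the DFO libraries. Slc11a2, the transporter DMT1, lay at 9.16, 8.3 and 8.55 FPKM without and at 10.3, 10.4 and 8.74 FPKM with DFO. Its groups overlapped, and the change did not pass the test (log2 change 0.17 ± 0.110 (SE), adjusted p = 0.226). In siControl cells, the log2 change of Slc11a2 was 0.67, and the difference between the changes was -0.50 (interaction adjusted p = 0.111). Of the 3 tested iron sensors, 0 were called by limma. Ireb2, which encodes the iron regulatory protein IRP2, had a log2 change of 0.41 (adjusted p = 0.00674). Aco1, which encodes IRP1, had one of -0.47 (adjusted p = 0.0117, and 0.0524 at the highest among the alternatives). Fbxl5, the ubiquitin ligase subunit that senses iron and removes IRP2, lay at 28.1 to 32.6 FPKM without and 27.5 to 33.4 FPKM with DFO (adjusted p = 0.688).

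Iron-sulfur cluster and heme genes were the next groups. Of 29 tested genes of iron-sulfur cluster assembly, 1 was called higher (Iba57, which matures mitochondrial iron-sulfur enzymes, at 1.93 and 4.04 FPKM on average, chosen here as the single call) and 0 lower, with a median log2 change of -0.126. Hspa9, the mitochondrial chaperone that passes clusters on, had a log2 change of 0.92 (adjusted p = 5.84e-06), below the fold limit. Bola3, a later factor of the same route, had one of -0.58 (adjusted p = 0.0138). Of 13 tested heme genes, 2 were called higher and 0 lower, with a median of -0.317, and 6 were lower at an adjusted p below 0.05 alone. The called genes were Hmox1, which breaks down heme and frees its iron, and Cpox, a late enzyme of heme synthesis. Hmox1 rose from 9.61, 14.4 and 12.8 FPKM to 75.6, 78.4 and 58.3 FPKM, 5.75-fold (adjusted p = 1.13e-07). Cpox rose 2.61-fold (adjusted p = 3.22e-06).

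**Figure D2:**
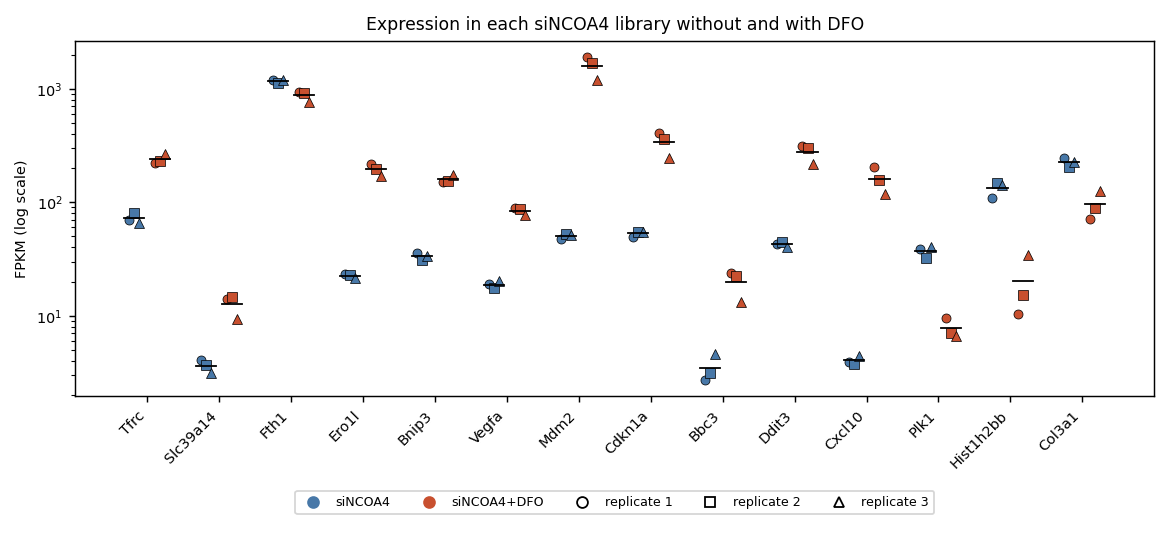
FPKM on a log axis of 14 named genes in each siNCOA4 library (blue) and each siNCOA4+DFO library (red). Symbols mark the replicate number and black bars the group means. For each of these genes the red and blue symbols do not overlap, and Mdm2 goes from 47.7 to 52.6 FPKM without DFO to 1202 to 1912 FPKM with it.

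HIF targets rose as a group. Of 25 tested, 19 were called higher and 0 lower, beside 7.32% and 3.88% of all genes tested, and the median log2 change was 1.52. Ero1l, the oxidase that drives disulfide bond formation in the endoplasmic reticulum (ER), lay at 23.4, 22.7 and 21.5 FPKM in siNCOA4 and at 215.7, 197.6 and 170.6 FPKM in siNCOA4+DFO. The lowest library with DFO was above the highest without it by a wide margin, and the change was 8.56-fold (log2 change 3.10 ± 0.122 (SE), adjusted p = 1.35e-08). Bnip3, a receptor for the removal of mitochondria by autophagy, lay at 35.4, 31.1 and 33.6 FPKM without and at 151.0, 152.7 and 174.2 FPKM with DFO, 4.76-fold (adjusted p = 1.98e-08). As with Tfrc, replicate 3 was the highest of the DFO libraries for Bnip3, of which 11.4% of the 75-base windows occur in other genes. Vegfa, the growth factor of blood vessels, lay at 18.9, 17.4 and 20.2 FPKM without and at 89.7, 86.7 and 77.2 FPKM with DFO, 4.47-fold (adjusted p = 1.98e-08). Ndrg1 rose 7.15-fold, Plod2, which hydroxylates lysines of collagen, 5.16-fold and Car9, a carbonic anhydrase at the cell surface, 4.93-fold, with adjusted p of 5.67e-08, 2.29e-08 and 0.000555.

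The promoters of Ero1l and Bnip3 are shown because HIF binds a core that can read ACGTG. Each runs from 250 bases before to 50 bases after the RefSeq start (GRCm38.p6), 5′ to 3′ on the strand of the gene, with ACGTG or its reverse complement CACGT in capitals. That of Ero1l (minus strand) holds 1 match, and that of Bnip3 (minus strand) holds 2 that overlap as a palindrome. The related form GCGTG, which is not marked, has 2 matches on either strand for Ero1l and 3 for Bnip3.
Ero1l promoter at chr14:45318523-45318822: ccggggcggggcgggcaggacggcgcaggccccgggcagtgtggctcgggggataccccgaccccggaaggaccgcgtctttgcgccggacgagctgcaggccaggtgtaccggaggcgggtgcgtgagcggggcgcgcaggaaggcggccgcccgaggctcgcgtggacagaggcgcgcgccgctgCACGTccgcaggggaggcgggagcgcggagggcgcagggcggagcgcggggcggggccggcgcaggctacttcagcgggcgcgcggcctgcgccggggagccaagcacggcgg
Bnip3 promoter at chr7:138909457-138909756: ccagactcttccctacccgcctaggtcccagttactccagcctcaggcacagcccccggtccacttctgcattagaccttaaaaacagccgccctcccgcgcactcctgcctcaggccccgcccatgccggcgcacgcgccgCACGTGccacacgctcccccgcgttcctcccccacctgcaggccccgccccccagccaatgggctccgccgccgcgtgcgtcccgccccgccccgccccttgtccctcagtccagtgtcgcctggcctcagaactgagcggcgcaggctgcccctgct

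Of 27025 genes with a promoter in that table, 5886 (21.8%) hold ACGTG on either strand. Promoters were given for 18 of the 25 tested HIF targets (72%), which is too few for a share over the list, and a match is a run of letters and not a measured site.

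Components of the HIF pathway moved less than its targets. Hif1a, the regulated subunit, lay at 35.7, 39.2 and 41.1 FPKM without and at 54.1, 53.5 and 54.2 FPKM with DFO (log2 change 0.48, adjusted p = 0.000136). Of 7 tested components, 1 was called, namely Egln1, the main prolyl hydroxylase of HIF, which rose 2.21-fold (adjusted p = 2.34e-05). Egln3 was listed at 0 in 5 of the 6 libraries and at 0.108 FPKM in siNCOA4+DFO replicate 2. Of 24 tested glycolysis genes, 7 were called higher and 0 lower, with a median log2 change of 0.616, but one of the 7 was Gapdh, whose value is uncertain as described. Eno2, an enolase, rose 4.89-fold, the hexokinase Hk2 rose 4.59-fold, and the glucose transporter Slc2a1 rose 3.43-fold from 67.6, 61.5 and 66.9 FPKM to 245.3, 247.4 and 184.8 FPKM (adjusted p = 2.86e-06, 2.01e-07 and 4.33e-07). Pdk1, the kinase that keeps pyruvate out of the mitochondrion, rose 2.63-fold, again with the highest value in replicate 3 (28.4, 32.1 and 37.3 FPKM with DFO).

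Of 71 tested genes of the respiratory chain, a list that leaves out succinate dehydrogenase, 0 were called by limma in either direction. At an adjusted p below 0.05 alone, 40 were lower and 0 higher, beside 20.3% and 23.4% of all genes tested, and 64 of 71 had a change below 0. The median log2 change was -0.401. Atp5b, a subunit of ATP synthase, lay at 550.3, 558.8 and 578.9 FPKM without and at 450.3, 437.6 and 383.1 FPKM with DFO (adjusted p = 0.00274). Cox6c had a log2 change of -0.20 that did not pass the test (adjusted p = 0.269). Of 17 genes of the tricarboxylic acid cycle, 13 were lower and 1 higher at an adjusted p below 0.05, with a median of -0.406, and 1 was called lower. That gene was Sdhc, the membrane anchor of succinate dehydrogenase, at 22.1 and 9.99 FPKM on average, named here as the single call. Cs, citrate synthase, had a log2 change of -0.41 (adjusted p = 0.000447).

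Targets of p53 were the next group. Mdm2, the ubiquitin ligase that restrains p53 and is itself induced by it, lay at 47.7, 52.6 and 51 FPKM in siNCOA4 and at 1912, 1676 and 1202 FPKM in siNCOA4+DFO. The change was 31.1-fold (log2 change 4.96 ± 0.138 (SE), adjusted p = 5.39e-10), and replicate 3 was the lowest library with DFO. Btg2, which restrains cell division, rose from 3.4, 4.05 and 4.1 FPKM to 157.7, 136.9 and 95.8 FPKM, 32.4-fold (adjusted p = 1.68e-08). Cdkn1a, the cell cycle inhibitor p21, lay at 49.8, 54.6 and 55 FPKM without and at 408.8, 364.5 and 247.0 FPKM with DFO, 6.25-fold (adjusted p = 1.29e-07). In each of these genes the order of the DFO libraries was the same, with replicate 1 highest and replicate 3 lowest. Of 23 tested p53 targets of arrest, repair and feedback, 13 were called higher and 0 lower, with a median log2 change of 1.29. Trp53, the gene of p53, lay at 45.1, 46.7 and 44.9 FPKM without and at 86.9, 82.1 and 51.9 FPKM with DFO, a change below 2-fold (log2 change 0.66, adjusted p = 0.00441). Replicate 3 was close to the untreated libraries here, and without it the log2 change of Trp53 was 0.89 (adjusted p = 1.39e-05).

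Targets of p53 that act in cell death moved likewise. Of 14 tested, 8 were called higher and 0 lower, with a median log2 change of 1.51. Fas, a death receptor, rose 7.84-fold from 2.78, 2.17 and 1.91 FPKM to 25.9, 19.1 and 12.5 FPKM (adjusted p = 2.83e-06). Pidd1, a scaffold that activates caspase-2, rose 6.05-fold (adjusted p = 9.63e-07). Bbc3, the Bcl2 antagonist PUMA, lay at 2.73, 3.11 and 4.56 FPKM without and at 24, 22.2 and 13.1 FPKM with DFO, 5.51-fold (adjusted p = 5.68e-06). The death receptor Eda2r rose 4.16-fold (adjusted p = 2.29e-08). Pmaip1, the Bcl2 antagonist NOXA, was listed at 0 in all 6 libraries. Of 26 tested genes of the Bcl2 family and the caspases, 0 were called higher and 2 lower, with a median of -0.06. The 2 called were Bmf, a Bcl2 antagonist, which fell 7.32-fold from 4.01, 4.33 and 4.18 FPKM to 0.197, 0.424 and 1.18 FPKM (adjusted p = 0.000443), and Casp12, a caspase of the ER, which fell 2.33-fold (adjusted p = 0.0038).

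Stress genes downstream of ATF4, the transcription factor made when translation is slowed, were the next group. Of 29 tested, 13 were called higher and 0 lower, with a median log2 change of 0.967. Ppp1r15a, which reverses the translational block, rose from 5.6, 4.97 and 8.8 FPKM to 179.3, 172.0 and 105.1 FPKM, 23.3-fold (adjusted p = 4.29e-08). Ddit3, the transcription factor CHOP, lay at 43.2, 44.4 and 40.1 FPKM without and at 311.1, 302.7 and 218.7 FPKM with DFO, 6.43-fold (adjusted p = 1.68e-08). Slc7a11, the cystine importer, rose 7.12-fold (adjusted p = 2.29e-08), and here the DFO libraries lay within 24.4 to 25.9 FPKM. Gdf15, a stress-induced hormone, was listed at 0 in all siNCOA4 libraries and lay at 5.97, 3.21 and 2.65 FPKM with DFO. It thus passed the filter through the libraries with DFO alone. Atf4 itself had a log2 change of 0.87 (adjusted p = 1.71e-05). Of 21 tested ER chaperones and sensors, 5 were called higher and 0 lower, with a median of 0.449. Hspa5, the chaperone BiP, rose 3.28-fold from 342.3, 359.8 and 336.0 FPKM to 1208, 1270 and 954.7 FPKM (adjusted p = 3.09e-07). Dnajb9, its cochaperone, rose 4.65-fold, Herpud1, a factor of ER-associated degradation, 2.94-fold, and the sensor Ern1 2.84-fold (adjusted p = 3.04e-08, 3.82e-07 and 1.64e-05).

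Cytokine and immediate early genes had the highest median of the lists. Ccl4, for example, passed the filter through the libraries with DFO alone, so the count and the median of this list cannot be read apart from the filter. Of 26 tested, 20 were called higher and 1 lower, with a median log2 change of 2.46, and the one lower was the chemokine Cxcl5, named here as the single fall. Fos, a subunit of the transcription factor AP-1, lay at 1.15, 0.133 and 1.43 FPKM without and at 27.4, 24 and 13.6 FPKM with DFO, 27.3-fold (adjusted p = 4.02e-05). Fosl1, a related subunit, rose 16.7-fold (adjusted p = 4.94e-08). Ccl5, a chemokine for T cells, rose from 5.83, 6.63 and 7.34 FPKM to 138.8, 116.2 and 84.1 FPKM, 16.6-fold (adjusted p = 4.94e-08). Ccl4 was listed at 0 in all siNCOA4 libraries and lay at 2.3, 3.74 and 0.695 FPKM with DFO. Of 27 tested interferon response genes, 14 were called higher and 0 lower, with a median of 1.14. Cxcl10, a chemokine induced by interferon, lay at 3.93, 3.78 and 4.39 FPKM without and at 205.7, 158.4 and 117.8 FPKM with DFO, 38-fold (adjusted p = 5.01e-07). Rsad2, an antiviral enzyme, rose 26.7-fold, Mx2 17.9-fold and Ifit1, which binds viral RNA, 14.2-fold (adjusted p = 2.08e-05, 2.79e-05 and 1.29e-08). Microglia, a source of such genes in brain, were checked by 7 markers. Of these, P2ry12 was at 0 in all 6 libraries and 1, Tmem119, reached a mean of at least 1 FPKM, with a summed level of 3.79 to 5.83 FPKM without and 0.762 to 2.15 FPKM with DFO.

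Histone genes fell almost as a whole. Of 62 tested, 54 were called lower and 0 higher, with a median log2 change of -1.66. Hist1h2bb, a gene of histone H2B, lay at 108.7, 149.0 and 142.8 FPKM in siNCOA4 and at 10.3, 15.3 and 34.6 FPKM in siNCOA4+DFO, 7.48-fold lower (adjusted p = 1.48e-05). Hist1h2bj fell 7.11-fold (adjusted p = 5.99e-06). Hist1h2ba was listed at 0 in all libraries with DFO and lay at 0.871, 1.78 and 1.66 FPKM without. Hist1h2ao lay at 7.41, 7.62 and 4.31 FPKM without and under 0.001 FPKM with DFO, but 93.1% of its 75-base windows occur in 19 other genes, and the shares for Hist1h2bb and Hist1h2bj were 36.6% and 50.4%. Single histone genes are therefore uncertain, while the fall was seen across the list. Most histone mRNAs are made during DNA replication and end in a stem-loop in place of a poly(A) tail, and a stem-loop of 6 paired bases beginning GG around a loop TTTN was found in the 3′ untranslated regions of 39 of the 62. The element is shown for 2 of the genes named, both on the plus strand of chromosome 13 in a single exon, with the stem and loop in capitals.
Hist1h2bb at chr13:23747196-23747225: acccaaaGGCTCTTTTAAGAGCCacccaca
Hist1h2bj at chr13:22043631-22043660: atccaaaGGCTCTTTTCAGAGCCacgcaca

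The stem-loop occurs in 0.295% of coding genes. Of the 39 histone genes with it, 33 were called lower (median log2 change -1.61), and of the 23 without a match, 21 were called lower (median -1.73).

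Of 46 tested genes of DNA replication, 2 were called higher and 0 lower, with a median log2 change of 0.033. At an adjusted p below 0.05 alone, 11 were higher and 7 lower, the latter led by Tk1, a thymidine kinase (log2 change -0.79), which was chosen after its values were seen. Orc1, of the origin recognition complex that marks where replication starts, rose 2.71-fold (adjusted p = 3.74e-07), and Rrm2, the iron-holding subunit of ribonucleotide reductase, rose from 40.1, 44 and 40.6 FPKM to 106.2, 94.6 and 79.8 FPKM, 2.24-fold (adjusted p = 1.55e-06). Of 42 tested mitosis genes, 8 were called lower and 1 higher, with a median of -0.433, and 29 were lower at an adjusted p below 0.05 alone. Plk1, the kinase that drives entry into mitosis, fell 4.79-fold from 39.1, 32.1 and 40.7 FPKM to 9.59, 7.01 and 6.69 FPKM (adjusted p = 8.52e-07). The kinesin Kif20a fell 2.7-fold and the kinetochore protein Cenpf 2.56-fold (adjusted p = 3.43e-08 and 2.26e-05), while the kinesin Kif18b rose 2.77-fold (adjusted p = 2.02e-05). Mki67, a marker of dividing cells, lay at 154.4 to 159.9 FPKM without and at 123.9, 134.8 and 156.7 FPKM with DFO, so its groups overlapped through replicate 3 (adjusted p = 0.142). Without replicate 3 its log2 change was -0.28 (adjusted p = 0.0329). In such bulk samples, fewer cells in a phase or of a type and less RNA per cell cannot be told apart. Among 24 tested regulators of G1, 3 were called higher and 1 lower, which is 16.7% called against 11.2% of all genes tested (7.32% higher and 3.88% lower). Myc rose 9.03-fold from 9.43, 9.42 and 10.2 FPKM to 105.6, 102.5 and 63.2 FPKM, Rb1, the retinoblastoma gene, rose 2.9-fold, Mxd1, a partner of the Myc network, rose 2.49-fold, and its relative Mxd3 fell 3.26-fold (adjusted p = 4.99e-08, 2.63e-06, 5.43e-06 and 0.000184).

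Fibroblast markers were the single set of cell type markers with more than 2 members tested. Their summed level was 2331 to 2528 FPKM in siNCOA4 and 1646 to 1849 FPKM in siNCOA4+DFO, carried for the most part by vimentin. Of 9 tested, 4 were called lower and 0 higher, with a median log2 change of -0.895, and 3 were called lower without replicate 3. Col3a1, a fibrillar collagen, lay at 245.2, 202.8 and 228.3 FPKM without and at 71, 89.2 and 126.8 FPKM with DFO, 2.42-fold lower (adjusted p = 7.06e-05). The growth factor receptors Pdgfra and Pdgfrb fell 2.73-fold and 2.56-fold (adjusted p = 0.00185 and 0.000115). Acta2, smooth muscle actin, fell 2.64-fold but lost its call without some libraries (adjusted p = 0.0467, and 0.147 at the highest among the alternatives). Whether this fall of fibroblast markers has a part in the other changes was not tested.

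Ribosomal proteins, autophagy and oxidative defence were the next lists. Of 76 tested ribosomal protein genes, 0 were called by limma and 15 had an unadjusted p below 0.05. At an adjusted p below 0.05 alone, 9 were lower and 0 higher, beside 20.3% and 23.4% of all genes tested. Most changes were in the same direction, with 73 of the 76 below 0 and a median log2 change of -0.2. Single genes ranged from -3.98 to 1.84. Of 32 autophagy genes (6.25% called, against 11.2% of all genes tested), 2 were called higher. They were Ulk1, the kinase that starts autophagosomes, 4.21-fold, and Sqstm1, the cargo receptor p62, which rose 2.7-fold from 140.2, 136.5 and 146.7 FPKM to 437.7, 425.6 and 298.6 FPKM (adjusted p = 1.62e-05 and 2.63e-06). Of 24 genes of ferroptosis and oxidative defence, 2 were called higher and 1 lower, which is 12.5% called against 11.2% of all genes tested. At an adjusted p below 0.05 alone, 6 were higher and 11 lower, beside 23.4% and 20.3% of all genes tested, and the median was -0.265. Ptgs2, cyclooxygenase 2, rose 21.5-fold from 5.87, 6.67 and 6.43 FPKM to 150.2, 146.1 and 119.3 FPKM (adjusted p = 4.83e-11), Osgin1 rose 2.14-fold (adjusted p = 0.000611), and Nqo1, a quinone reductase, fell 2.09-fold (adjusted p = 5.47e-06). Gpx4, which reduces lipid peroxides, had a log2 change of -0.43 (adjusted p = 0.0238, and 0.106 at the highest among the alternatives).

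The 5 largest rises outside small RNA genes, among called genes with a mean of at least 1 FPKM in the higher group and groups that did not overlap, were those of Zfp750, Gdf15, Cxcl10, Ces2f and Btg2. Zfp750, a transcription factor of epidermal differentiation, lay at 0, 0.0836 and 0 FPKM without and at 9.6, 7.73 and 5.57 FPKM with DFO. Ces2f, a carboxylesterase, lay at 0.596, 0.616 and 0 FPKM without and at 19, 14.1 and 8 FPKM with DFO. In all 5 genes, replicate 3 was the lowest of the DFO libraries. The 5 largest falls were in Hist1h2ao, Hist1h2ba, 8430426J06Rik, Capns2 and Gm12060, of which 3 were listed at 0 in all libraries with DFO and started from a mean of 1.45 FPKM (8430426J06Rik) or from no more than 2.07 FPKM in any library (Capns2 and Hist1h2ba).

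Replicate 3, known beforehand from these data as the weakest responder, responded least of the 3 libraries with DFO. To measure this with genes chosen elsewhere, the 2118 genes called between siControl+DFO and siControl (18.4% of the genes tested, 1217 or 10.5% higher and 901 or 7.81% lower) were followed in each siNCOA4+DFO library, signed by their direction in siControl cells. Their median log2 change from the siNCOA4 mean was 1.17 in replicate 1, 1.10 in replicate 2 and 0.89 in replicate 3, and replicate 3 had the smallest change of the 3 in 68.4% of the genes. The slope on the change in siControl cells was 0.720, 0.698 and 0.553. Replicate 3 was also the library with the lowest relative depth (0.709) and, of the 3, the highest Ncoa4 (1.57 FPKM). Whether depth or the level of Ncoa4 has a part in its weaker response was not tested.

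The weaker response of replicate 3 was uneven across gene groups. For p53 targets of cell death the median log2 change was 1.71, 1.64 and 1.17 in replicates 1 to 3, for ATF4 targets 1.05, 1.03 and 0.76, for the cytokine list 2.93, 2.44 and 2.04, and for histones -1.72, -1.80 and -1.35. For HIF targets it was 1.51, 1.60 and 1.42, for glycolysis 0.590, 0.583 and 0.596, and for the respiratory chain -0.380, -0.358 and -0.431. Replicate 3 thus had the largest absolute median of the 3 for glycolysis and for the respiratory chain, and Tfrc, Bnip3 and Pdk1 were highest in it.

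**Figure D3:**
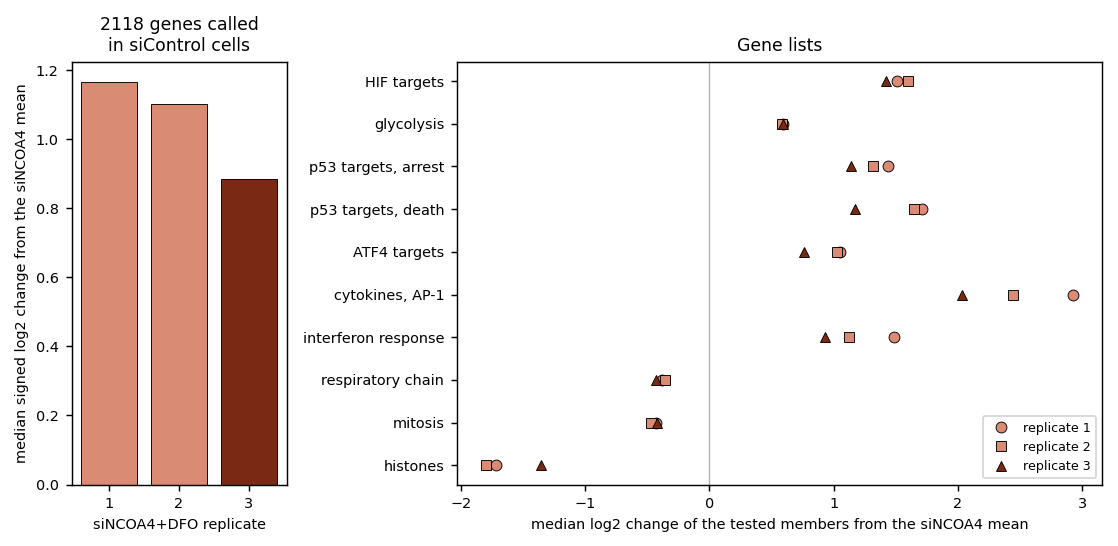
Response of each siNCOA4+DFO library. Left, bars give the median log2 change from the siNCOA4 mean over 2118 genes called in siControl cells, signed by their direction there. Right, each symbol is the median log2 change of the tested members of a list in a library. Replicate 3 (dark triangles) has the shortest bar, at 0.885, and lies nearest 0 for the p53, ATF4, cytokine, interferon and histone lists, but beside the other replicates for glycolysis and the respiratory chain.

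Without siNCOA4+DFO replicate 3, 1472 genes (12.8%) were called in place of 1293, with 935 higher and 537 lower. Of the 1293, 1206 (93.3%) were still called, 87 were not, and 266 others were added. The median absolute log2 change of the 1293 genes went from 1.46 to 1.57. Replicate 3 was left out because it responded least, so the larger counts and changes without it are a description and not a separate result. Of the 87 lost, 60 missed the adjusted p and 45 missed the fold, so that some missed both, and their median absolute change had been 1.12. The list counts moved by few genes: HIF targets stayed at 19 called higher with 1 called lower in addition, p53 targets of arrest went from 13 to 14 and of death from 8 to 9, ATF4 targets from 13 to 15, cytokine and immediate early genes from 20 to 23, and histones stayed at 54 lower. Mdm2 went from a log2 change of 4.96 to 5.15 and Ero1l from 3.10 to 3.19, while Tfrc went from 1.74 to 1.67. Genes in which replicate 3 lay farthest from the other DFO libraries were Gm12060, Lrrc17, Mfap4, Mir5136 and Tnfsf13. Lrrc17, for example, lay at 0.144, 0.267 and 1.21 FPKM with DFO and at 2.28 to 3.92 FPKM without. Mfap4, a microfibril protein, lay at 0, 0.399 and 2.59 FPKM with DFO, and its log2 change went from -2.42 to -3.62 without replicate 3.

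The question whether NCOA4 depletion alters the response to DFO was addressed by setting the change in siNCOA4 cells against that in siControl cells, measured in other libraries. Of the 1293 genes called in siNCOA4 cells, 1065 (82.4%) were also called in siControl cells, all in the same direction, and these made up 50.3% of the 2118 called there. The genes called in siNCOA4 cells had a median signed log2 change of 1.46 there and 1.68 in siControl cells, and those called in siControl cells had one of 1.04 in siNCOA4 cells and 1.47 in siControl cells. Across all genes tested, which are not independent replicates, the SD of the changes in siNCOA4 cells was 0.815 times that in siControl cells, and the Pearson correlation of the changes was 0.786.

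**Figure D4:**
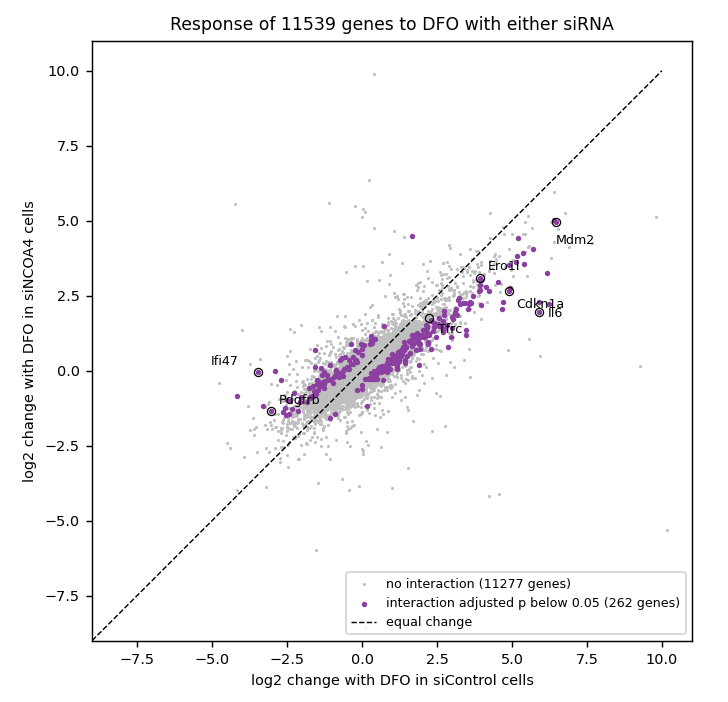
Log2 change with DFO in siControl cells (x axis) and in siNCOA4 cells (y axis) for the 11539 genes tested. Grey points are genes without an interaction, purple points the 262 genes with an interaction adjusted p below 0.05, and the dashed line marks equal change. Most purple points lie between the dashed line and a change of 0 in siNCOA4 cells, and the circled genes are named.

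The difference between the 2 responses passed the test of interaction in 262 genes (2.27%, adjusted p below 0.05 with limma). The change was smaller in size in siNCOA4 cells in 235 of them and larger in 27. The number depended on single libraries. It was 198 without siNCOA4+DFO replicate 3. Over the 12 libraries left out in turn, it was lowest, at 78, when siControl+DFO replicate 1 was dropped and highest, at 299, when siNCOA4+DFO replicate 1 was dropped, and 9 of these 12 omissions moved it by more than 1.5 times. The omissions that did not were those of siNCOA4+DFO replicates 1 and 3 and of siControl+DFO replicate 3. All 262 genes had the same sign in every one of up to 20 other settings in which they were tested, and 68 had an adjusted p below 0.05 in every one of these. Of the lists, p53 targets of arrest held 7 interactions among 23 tested genes, cytokine and immediate early genes 7 among 26, HIF targets 4 among 25, interferon response genes 4 among 27 and p53 targets of death 3 among 14, while histones and the respiratory chain held 0 among 62 and 71 by limma, with 5 and 2 at an unadjusted p below 0.05.

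Cdkn1a had a log2 change of 2.64 in siNCOA4 cells and 4.89 in siControl cells (interaction -2.24 ± 0.219 (SE), adjusted p = 0.000822). Its level was 53.2 ± 2.89 FPKM (SD, n = 3) in siNCOA4 against 15 ± 1.98 FPKM in siControl, and with DFO it was 340.1 ± 83.6 against 445.0 ± 19.2 FPKM. Thus it started higher and ended lower in NCOA4-depleted cells. Mdm2 likewise started at 50.4 ± 2.46 against 30.7 ± 2.05 FPKM and ended at 1597 ± 361.7 against 2726 ± 185.5 FPKM (interaction -1.51, adjusted p = 0.00355). Eda2r and Trp53inp1, a further p53 target, started higher and ended near the same level, with 17.9 against 5.92 FPKM and 8.07 against 3.29 FPKM without DFO and with 75 against 70 FPKM and 94.1 against 100.0 FPKM with DFO. For Ero1l the start was 22.5 against 12.3 FPKM and the end 194.6 against 189.0 FPKM (interaction -0.84, adjusted p = 0.0304), but this interaction passed the test in 8 of 20 other settings, and without replicate 3 its adjusted p was 0.0538. Tfrc started level, at 72 ± 7.25 against 70.3 ± 2.02 FPKM, and ended at 240.2 ± 20.9 against 328.4 ± 17.2 FPKM. Its interaction of -0.48 ± 0.123 (SE) did not pass the test (adjusted p = 0.0635).

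Of the 170 genes with an interaction that rose in siControl cells and rose less in siNCOA4 cells, 158 had a higher level in siNCOA4 than in siControl without DFO, and 12 had a higher level with DFO. The median differences between the siRNAs were 0.391 without and -0.465 with DFO on the log2 scale. Of the 79 genes that fell less in siNCOA4 cells, 8 had a higher level in siNCOA4 without and 66 with DFO. These genes were chosen by the interaction, so the counts are a description. Pdgfrb is one of them, with 12 against 25.7 FPKM without and 4.78 against 3.07 FPKM with DFO (interaction 1.67, adjusted p = 0.0111). HIF targets without an interaction include Vegfa, with log2 changes of 2.16 in siNCOA4 and 2.11 in siControl cells, and Bnip3, with 2.25 and 1.93.

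**Figure D5:**
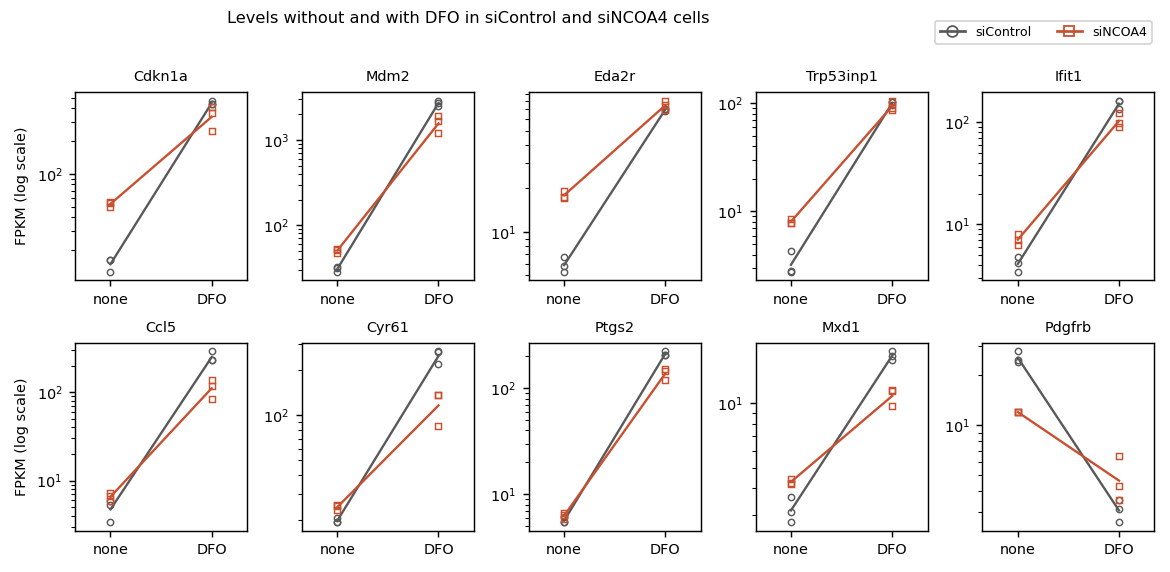
FPKM on a log axis without and with DFO in siControl (grey circles) and siNCOA4 (red squares) libraries for 10 genes with an interaction. Symbols are libraries and lines join the group means of log2(FPKM + 0.1). For the first 9 genes the siNCOA4 line starts above the siControl line and is less steep, and for Pdgfrb it starts below and falls less.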

How the data were processed

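RNA-seq of 12 HT22 libraries was used. The authors deposited FPKM per gene, 1 table per library. The labels name a kit for stranded total RNA, and the submitters' processing notes name Trimmomatic 0.33, FastQC, HISAT2 2.1.0, featureCounts, edgeR and the mouse build mm10 (GRCm38). The tool that wrote the FPKM is not given in the sources used here. Of 24347 entries, 4 with shared names were left out. FPKM keep no read totals, so no counting interval is given, and p-values measure the spread between these libraries.

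Changes were computed on log2(FPKM + 0.1) with a means model over all 12 libraries in limma 3.58.1 (R 4.3.3), with empirical Bayes moderation and a mean-variance trend (8 residual and 4.23 prior degrees of freedom), for genes that reached 0.5 FPKM in 3 or more of the 6 libraries. Calls required an adjusted p (Benjamini-Hochberg) below 0.05 and a fold above 2; interactions needed the adjusted p alone. Genes were named by rule: the iron genes and fixed pathway members, the 5 largest rises and falls (3 each way for small RNA genes), the 4 largest called members of each list (with fewer than 2 calls, the 2 most abundant), the 5 strongest interactions each way and the 5 genes farthest off in replicate 3. The members and lists were chosen with earlier results of these data known. In simulated data with 200 of 11539 genes changed, the fit recovered 89% (log2 change 1.5) and 93% (3) for the contrast and 77% and 90% for the interaction. There, the spread of a gene was the same in every group. In the data, called genes had a median SD of 0.287 on the log2 scale in siNCOA4+DFO and 0.178 in siNCOA4. Far more genes changed in the data, so these rates need not hold for them. The calls of 1 gene list are not reported here. Sequences came from GENCODE M21 and RefSeq. Python 3.11.15, numpy 2.4.6, pandas 2.3.3 and matplotlib 3.10.9 were used.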

Additional observations from a re-analysis of the deposited data

Results flagged for a closer look

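The responses to DFO in siNCOA4 and siControl cells differed in 262 genes by limma's interaction test, and 25 of the genes named in the text were among them. Values are log2 differences, the change in siNCOA4 cells minus that in siControl cells. Those that held in every alternative were -2.24 for Cdkn1a, -1.51 for Mdm2, -1.49 for Eda2r, -1.39 for Trp53inp1, -2.63 for Ifi202b, -1.33 for Ifit1, -1.63 for Ccl5, -1.39 for Cyr61, -0.77 for Ptgs2, -1.05 for Mxd1 and 1.67 for Pdgfrb. Those that passed the test in 8 to 19 of the alternatives were -3.99 for 4833427G06Rik, -3.60 for Oasl1, -2.91 for Evpl, -1.38 for Btg2, -0.84 for Ero1l, -0.54 for Kif20a, 1.07 for Col3a1, 2.82 for Bglap3, 3.35 for Gm19705 and 3.42 for Ifi47. Those that passed in 6 or fewer were -3.93 for Il6, -1.57 for Fas, 2.39 for Traf5 and 2.89 for Slc46a1.

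The 3 largest negative values belong to genes nearly absent from siControl cells without DFO. Il6, a cytokine, lay at 0.116 FPKM there and at 0.702 FPKM in siNCOA4, and with DFO at 9.93 and 3.24 FPKM. Oasl1, an interferon response gene, lay at 0.0909 and 0.904 FPKM without and at 10.6 and 4.63 FPKM with DFO. The 2 largest positive values belong to genes at 0 in siControl+DFO. Ifi47 and Gm19705 were listed at 0 in all of its libraries and lay at 1.4 and 2.22 FPKM in siNCOA4+DFO. Kif20a is the named gene whose fall was deeper in siNCOA4 cells, from 47.3 to 17.5 FPKM against 43.7 to 23.3 FPKM.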

How the results depend on the processing

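Fold changes of genes near 0 FPKM depend on the pseudocount, and FPKM give no counting error. The 1293 calls stayed within 1.5 times with a pseudocount of 1 (935) or 0.01 (1272), all genes above 0 kept (1549) or a minimum of 2 FPKM (1068), median-of-ratios (1295) or quantile scaling (1351), moderation without a trend (1287) and a fit of the 6 libraries alone (1283), with 1161 to 1472 when single libraries were left out. Without the fold limit there were 5048. The interaction count of 262 fell to 173 without the trend, 162 with quantile normalization and 174 with the replicate block, and ranged from 78 to 299 when single libraries were left out; the cause was not tested. Median responses of replicates 1 and 2 were 0.979 and 0.927 with a pseudocount of 1. The siControl count, whose alternatives were chosen after seeing the data, stayed between 1542 and 2463.

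Deviations of same-numbered siNCOA4 and siNCOA4+DFO libraries from their group means had correlations of 0.1101, 0.0283 and 0.0309. Those of the other pairs ranged from -0.1727 to 0.1235. With 3 libraries per group, these values cannot tell whether same-numbered libraries shared a batch. The replicate block left 1291 calls. Of 112 named genes with an adjusted p below 0.05, 101 kept it with the same sign under every alternative. Signs turned in genes that did not pass the test: Slc46a1 (-0.020 with a pseudocount of 1, -0.181 with quantile normalization), and, with single libraries left out, Slc46a1 (-0.354 to 0.324), Ifi47 (-0.350 to 0.359), Fbxl5 (-0.140 to 0.001) and Traf5 (-0.601 to 0.091).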

Other observations

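Small RNA genes, collagens and genes of the epidermis were not described above. Of 102 small RNA genes tested, 10 were called higher and 1 lower with DFO, which is 10.8% called against 11.2% of all genes tested. At an adjusted p below 0.05 alone, 33 were higher and 1 lower, beside 23.4% and 20.3% of all genes tested. The median log2 change was 0.755. The snoRNA Snord35a, which guides the methylation of ribosomal RNA, lay at 2010, 1847 and 1668 FPKM in siNCOA4 and at 5051, 4402 and 7310 FPKM in siNCOA4+DFO (adjusted p = 0.00104, limma). Snora3 rose 4.53-fold and Snora65 rose 3.23-fold (adjusted p = 0.0009 and 0.00449). All 75-base windows of both occur in transcripts of another gene. The 1 called lower, Mir5136, lay at 1696, 1110 and 373.2 FPKM without and at 0, 1272 and less than 0.001 FPKM with DFO, so its groups overlapped.

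Of 23 collagen genes tested, 2 were called higher and 2 lower, which is 17.4% called against 11.2% of all genes tested. The fibrillar Col3a1 and the microfibrillar Col6a1 fell 2.42-fold and 2.16-fold (adjusted p = 7.06e-05 and 3.96e-05), while the cartilage collagens Col2a1 and Col9a3 rose from means of 0.101 and 0.479 FPKM to 1.93 and 3.98 FPKM (adjusted p = 7.23e-05 and 0.000179). Of 20 matrix remodelling genes tested, 1 was called higher and 2 lower (15% called), with a median log2 change of -0.167. Of 60 keratins and cornified envelope genes, 5 passed the filter on FPKM, and 3 of these were called higher, with a median log2 change of 2.31. Krt7 and Krt16 passed the filter through the libraries with DFO alone. The share called and the median therefore cannot be read as a result for the list. Without siNCOA4+DFO replicate 3, 3 were called as well, but Krt7 lost its call (adjusted p = 0.0156 with and 0.0645 without that library) and Krt80 gained one, and the median of the list was 3.12 in replicate 3 against 1.89 and 1.79 in the others. Sprr1a, a protein of the cornified envelope, lay at 0.388, 0.399 and 0.726 FPKM without and at 16, 17 and 4.98 FPKM with DFO, and Krt16 (28.9% of 75-base windows shared) at 0, 0 and 0.164 FPKM without and at 3.94, 1.54 and 1.99 FPKM with DFO. Of 30 other iron- and oxoglutarate-dependent dioxygenases, 2 were called higher and 1 lower, which is 10% called against 11.2% of all genes tested. The 2 higher were the histone demethylase Kdm6b (3.33-fold) and Jmjd6 (2.14-fold), and the 1 lower was the mitochondrial Alkbh7 (2.67-fold). Their adjusted p by limma were 6.73e-06, 8.67e-06 and 0.00632.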
